A study of Homo sapiens with 6 samples.

Results

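Chromosome segregation in T24 cells was followed through 51 genes. Of these, 50 act in mitotic entry, at the kinetochore, on the spindle or in cytokinesis. They were listed with earlier results of these data known, so their tests and called shares are not independent of the data. The last, PRR11, was chosen on its values in these libraries. PRR11 was lower than siControl with one siRNA and higher with the other, and this opposite movement is the reason that it was selected. The 51 genes are among 58288 identifiers in the deposited table, and all 51 passed the filter on low counts together with 14415 genes in all. T24 is a human bladder cancer cell line. The cells were transfected with siControl, siRNA1 or siRNA2, and each group had 2 libraries labelled as biological replicates. Both siRNAs were designed against the looping site of circ235, a circular RNA made from exons of CCNY, and the labels give no other alteration in any group. RNA was selected on oligo dT beads, and circular RNA has no poly(A) tail, so the counts hold no value for circ235 and the knockdown could not be checked in them. siRNA1 and siRNA2 are 2 single oligonucleotides, so a difference between them cannot be told apart from an effect of either oligonucleotide on other transcripts.

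Mitosis runs on proteins that are made late in the cell cycle and destroyed before the next one. CDK1 with its cyclins starts it, Polo and Aurora kinases build the spindle, the kinetochore ties chromosomes to microtubules, and the checkpoint holds back the anaphase-promoting complex until every kinetochore is attached. Many of these genes share a promoter layout. A cell cycle genes homology region (CHR), bound by the MuvB complex with MYBL2 and FOXM1 in dividing cells and with pocket proteins in resting cells, lies close to the start site, and CCAAT boxes bound by NF-Y lie upstream of it. PRR11 encodes a proline-rich protein tied to progress through late cell cycle phases. It shares a divergent promoter with SKA2, which encodes a subunit of the spindle and kinetochore associated complex.

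The promoters of this divergent pair are shown because their genes gave different patterns across the siRNAs. They were taken from RefSeq (GRCh38.p14) as windows of 250 bases before to 50 bases after the annotated start, 5′ to 3′ on the strand of the gene. Capitals mark the CHR word TTTGAA and the CCAAT box word CCAAT, read on either strand. The PRR11 window is chr17:59155496-59155795 (+) and the SKA2 window is chr17:59155137-59155436 (-).
PRR11: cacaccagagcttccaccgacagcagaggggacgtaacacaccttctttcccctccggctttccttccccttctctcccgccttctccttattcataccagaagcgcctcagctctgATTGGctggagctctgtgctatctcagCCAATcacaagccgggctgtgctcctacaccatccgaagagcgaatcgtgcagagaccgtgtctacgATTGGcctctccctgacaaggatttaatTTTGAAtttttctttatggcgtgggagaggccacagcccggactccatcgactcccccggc
SKA2: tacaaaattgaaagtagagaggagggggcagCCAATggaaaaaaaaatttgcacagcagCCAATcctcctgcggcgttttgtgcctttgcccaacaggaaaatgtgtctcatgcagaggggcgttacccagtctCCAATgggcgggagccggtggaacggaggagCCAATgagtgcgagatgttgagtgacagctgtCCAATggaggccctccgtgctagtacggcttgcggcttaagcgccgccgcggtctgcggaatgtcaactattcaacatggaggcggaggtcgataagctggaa
The PRR11 window held 1 CHR, at -11 from the start, and 3 CCAAT boxes, at -133, -106 and -39. The last of these boxes lay 28 bases before the CHR. The SKA2 window held 5 CCAAT boxes, and the CHR word was not among its letters.

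Stretches around the CHR of 7 further members are shown because these genes carry the contrasts described below or stand for their role. Capitals mark the same words.
ESPL1, chr12:53268223-53268288 (+): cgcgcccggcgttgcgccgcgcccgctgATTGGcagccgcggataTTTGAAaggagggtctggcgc
CDCA8, chr1:37692448-37692513 (+): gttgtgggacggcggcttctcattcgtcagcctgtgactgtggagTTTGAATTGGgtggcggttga
INCENP, chr11:62123956-62124021 (+): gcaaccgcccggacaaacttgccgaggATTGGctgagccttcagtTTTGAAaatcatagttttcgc
BUB1B, chr15:40161001-40161066 (+): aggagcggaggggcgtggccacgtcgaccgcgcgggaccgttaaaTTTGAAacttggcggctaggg
PRC1, chr15:90994535-90994600 (-): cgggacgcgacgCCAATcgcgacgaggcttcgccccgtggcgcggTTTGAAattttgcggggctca
PLK1, chr16:23678815-23678880 (+): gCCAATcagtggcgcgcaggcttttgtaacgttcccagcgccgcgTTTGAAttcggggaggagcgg
MAD2L1, chr4:120066804-120066869 (-): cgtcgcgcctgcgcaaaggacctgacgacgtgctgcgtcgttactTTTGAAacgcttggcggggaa
In these stretches the CHR lay at -31 in ESPL1, -23 in CDCA8, -10 in INCENP, -23 in BUB1B, -20 in PRC1, -29 in PLK1 and 24 in MAD2L1, counted from the start. The CHR and a CCAAT box overlapped in CDCA8. A CCAAT box lay 17 bases before the CHR in ESPL1, 18 in INCENP and 33 in PRC1.

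Windows were found for 42 of the 51 members. The CHR was in 29 of these (69.0%), the CCAAT box in 33 (78.6%) and both in 25 (59.5%). Over the 10082 windows of genes tested, the shares were 9.13%, 36.4% and 3.94%, and over all 27305 windows of the table they were 15.4%, 35.7% and 6.08%. The CHR was in 39 of 86 windows (45.3%) of other mitosis genes, a set of 6 lists described below, and in 1 of 27 windows (3.70%) of DNA replication genes, which act earlier in the cycle. Of the members, 23 had a CHR between 60 bases before and 30 bases after the start, and 16 had a CCAAT box 15 to 40 bases before a CHR. Of the 4 members that fell with siRNA1, the windows of CDC25B and AURKB did not hold the CHR word. The ESPL1 window held it at -31, and for FOXM1 no window was found. A match is a description of the letters and not evidence of binding.

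**Figure D1:**
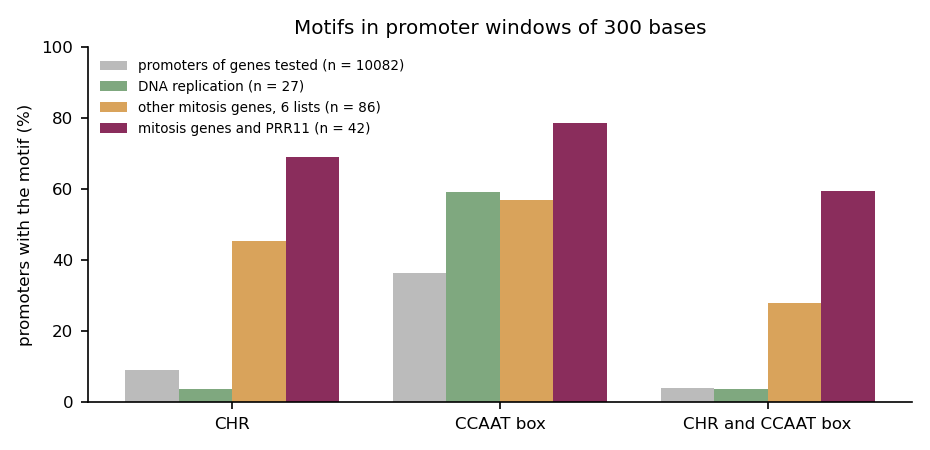
Bars give the percentage of RefSeq promoter windows of 300 bases that hold a CHR, a CCAAT box or both, for genes tested, DNA replication genes, other mitosis genes and the mitosis genes with PRR11. The CHR was in 69.0% of the windows of the mitosis genes with PRR11 and in 9.13% of those of genes tested.

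The libraries held 15373992 to 19912893 counts, and replicates differed beyond sampling noise in each group. The 50 members other than PRR11 took 0.537% to 0.697% of the counts of a library. Levels between libraries are given as CPM (counts scaled to a common library total) after TMM scaling. T24 cells held the keratins KRT7, KRT8 and KRT18 at 619 to 2310 CPM, while KRT19, CDH1 and each of the uroplakins UPK1A, UPK1B, UPK2 and UPK3A stayed under 1 CPM, so the urothelial identity markers were near absent. The leukocyte markers PTPRC and CD3E were at 0 in every library. The leukocyte marker CD14 was at 9.94 and 11.0 CPM with siRNA1 against 1.72 to 2.87 CPM in the other libraries, and its part in the results was not tested.

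Between genes, levels were compared per transcript length in TPM (length-scaled transcript levels), as means of the 2 siControl libraries. The anaphase-promoting complex enzyme UBE2C had the highest level of the members at 741 ± 57.2 TPM (SD, n = 2). It was followed by the securin gene PTTG1 at 432 ± 4.47 TPM. CCNB1 at 328 ± 65.4 TPM and CDC20 at 328 ± 20.7 TPM did not differ beyond their spread. CDC25B had 312 ± 37.5 TPM and MYBL2 280 ± 13.2 TPM, within the spread of CDC25B. The lowest levels were those of long transcripts, with KNL1 at 3.43 ± 0.0282 TPM and CENPE at 1.71 ± 1.53 TPM. PRR11 lay in the lower part of the list, at 36.5 ± 13.4 TPM.

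PRR11 (ENSG00000068489.12, chr17:59155499-59204705, plus strand, GRCh38) had 35.5 and 48.3 CPM in the siControl libraries, 12.9 and 12.9 CPM with siRNA1, and 101 and 109 CPM with siRNA2. Both siRNA1 libraries were below both siControl libraries, and both siRNA2 libraries were above them. The group means were 41.9 ± 9.05, 12.9 ± 0.017 and 105 ± 5.13 CPM (SD, n = 2). The log2 fold change was -1.70 for siRNA1 and 1.32 for siRNA2 against siControl, and 3.02 for siRNA2 against siRNA1. These values chose the gene, so they were not tested. Over all processing alternatives the log2 fold change lay between -1.91 and -1.42 for siRNA1 and between 1.11 and 1.57 for siRNA2. The PRR11 exons share 97 bases with those of AC099850.3 on the opposite strand, and counts without strand cannot separate their reads there. AC099850.3 had 43 and 123 counts in siControl, 23 and 50 with siRNA1 and 308 and 397 with siRNA2, while PRR11 had 541 and 790, 184 and 231, and 1716 and 2270 counts. In both rows the siRNA2 counts were above all others. The siRNA1 counts were below both siControl counts for PRR11, but overlapped them for AC099850.3. These counts are not scaled for library size.

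SKA2 (ENSG00000182628.12), on the other side of the shared promoter, did not follow PRR11. It had 48.1 and 48.5 CPM in siControl, 84.5 and 103 CPM with siRNA1, and 47.0 and 56.2 CPM with siRNA2. Both siRNA1 libraries were above all others, and the siRNA2 libraries lay on either side of siControl. SKA2 rose with siRNA1 by a log2 fold change of 0.95 (SE 0.19, edgeR adjusted p = 0.0205), and its log2 fold change with siRNA2 was 0.09 (SE 0.19, adjusted p = 0.740). It was lower with siRNA2 than with siRNA1 by a log2 fold change of -0.86 (edgeR adjusted p = 0.00534). The siRNA1 call was lost without siControl replicate 1 (adjusted p = 0.100), without siControl replicate 2 (adjusted p = 0.0872) and without siRNA1 replicate 2 (adjusted p = 0.195).

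**Figure D2:**
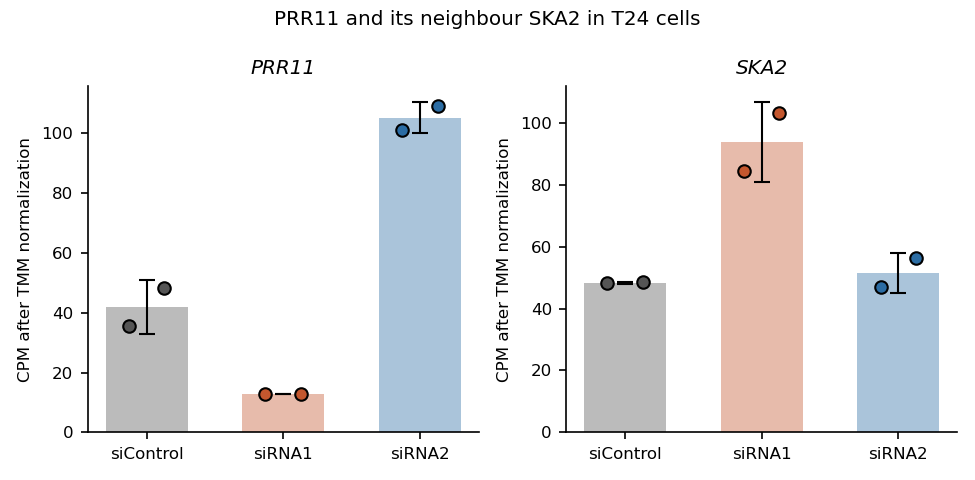
Bars give the mean CPM after TMM normalization of PRR11 and SKA2 in siControl, siRNA1 and siRNA2, error bars the SD of 2 libraries, and points the libraries. PRR11 was lowest with siRNA1 (12.9 CPM) and highest with siRNA2 (101 and 109 CPM), whereas SKA2 was highest with siRNA1 (84.5 and 103 CPM).

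Across the other 50 members, few genes passed the test with siRNA1, and all of them fell. FOXM1, CDC25B, ESPL1 and AURKB were lower than siControl, a transcription factor, a phosphatase that activates CDK1, the separase that cuts cohesin, and the kinase of the chromosomal passenger complex. The edgeR quasi-likelihood test over 14415 genes called 0 of the 50 higher and 4 lower at an adjusted p under 0.05, and 11 had an unadjusted p under 0.05 in either direction. Among all genes tested, 2.24% were called higher and 3.64% lower. With 50 members, these shares amount to few genes, so no difference from the background was read from them. The median log2 fold change of the 50 was 0.04, and that of all genes tested was -0.03. DESeq2 called 1 higher, CENPA, and 5 lower. The call on all 4 was lost without siRNA1 replicate 2, where edgeR called 0 of 15037 genes in all, 0 of them members, and 6 members had an unadjusted p under 0.05. Without siControl replicate 1, 2 members were called (ESPL1 and FOXM1), and without siControl replicate 2, 1 (CDC25B), beside 0.113% to 0.625% of all genes per direction. A smooth dependence on length and GC was then removed from each library. With it removed, 5 members were called higher and 4 lower, beside 8.26% and 5.41% of all genes. A change in the share of cells in mitosis and a change in RNA per cell cannot be told apart in these bulk libraries.

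With siRNA2, 17 of the 50 passed, in both directions. CCNA2, BUB1, BUB1B, INCENP, KIF4A, TPX2, PRC1 and RACGAP1 rose. CDK1, PLK1, MAD2L1, CDC20, PTTG1, AURKB, BIRC5, SPC24 and SPC25 fell. By edgeR these are 8 higher and 9 lower, beside 15.7% of all genes called higher and 15.7% called lower, so the shares of members were near the background. The median log2 fold change of the 50 was -0.19, and that of all genes tested was 0.00. Without TMM factors the median over all genes was 0.25, and 12 members were called higher and 4 lower, beside 22% and 8.98% of all genes, so the balance of directions depends on the scaling. With the dependence on length and GC removed, the split was 4 higher and 9 lower, beside 11.2% and 14.7% of all genes, and 7 of the 17 calls were lost. Without siControl replicate 1, 2 of the 17 members were called, BUB1B and SPC24, and the calls over all genes fell to 2.86% higher and 2.23% lower. The set of called members changed when either siRNA2 library was left out. CENPF, ASPM and TTK were not called over all 6 libraries. Without siRNA2 replicate 2 their log2 fold changes were -3.04, -3.15 and -2.67. Without siRNA2 replicate 1 they were 0.42, 0.44 and 0.14.

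The siRNAs were then set against each other directly, a contrast that needs no siControl library. Of the 50 members, 10 were higher and 14 lower with siRNA2 than with siRNA1 by edgeR, beside 21.1% and 18.6% of all genes tested. The share called higher was near the background and the share called lower above it. The list was chosen with results of these data known, so no excess was read from this. The median log2 fold change was -0.22, and that of all genes was 0.04. Without TMM factors that median was 0.37, and the split was 14 higher and 7 lower, beside 31.5% and 10.4% of all genes. With the dependence on length and GC removed, 24 members were called, of which 19 were also called with it in place. In that fit 17.2% of all genes were called higher and 23.2% lower. Without siRNA1 replicate 2, 10 members were called, beside 9.92% of all genes called higher and 8.82% lower. The 3 comparisons share libraries, so each is given by its own values.

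**Figure D3:**
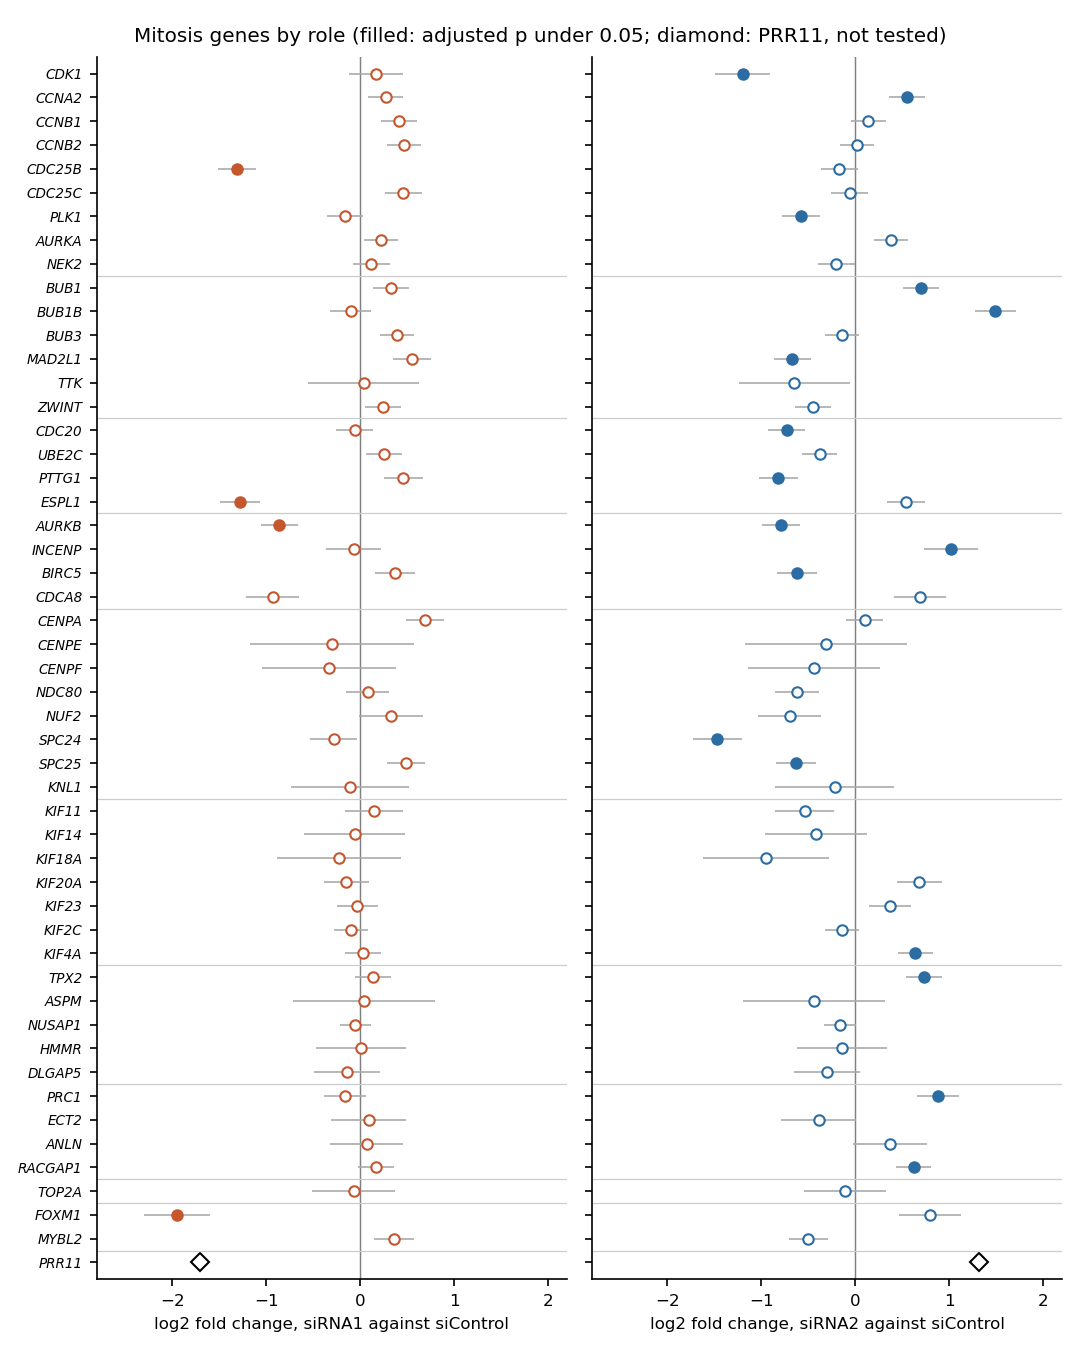
Each row is a member, grouped by role, and the horizontal axis is the edgeR log2 fold change against siControl for siRNA1 and siRNA2, with error bars of 1 SE. Filled points passed an adjusted p of 0.05, 4 with siRNA1 and 17 with siRNA2, and the diamond is PRR11 (-1.70 and 1.32), which was not tested.

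Of 9 genes of mitotic entry, 1 fell with siRNA1, beside 3.64% of all genes. With siRNA2, 1 rose and 2 fell, where 15.7% of all genes were called in each direction. CDK1, the kinase that drives entry, had 194 and 203 CPM in siControl, 195 and 254 with siRNA1, and 56.7 and 116 with siRNA2. Both siRNA2 libraries were below the rest, though they lay apart from each other. Its log2 fold change was -1.20 with siRNA2 (SE 0.29, edgeR adjusted p = 0.0119), -0.77 without siRNA2 replicate 1 (adjusted p = 0.0485), and -0.67 with the dependence on length and GC removed (adjusted p = 0.0262). Without siRNA2 replicate 2 it was -1.81. CCNB1, the cyclin that CDK1 binds at entry, had 344 and 365 CPM in siControl, 472 and 472 with siRNA1, and 426 and 354 with siRNA2. The siRNA2 values overlapped those of siControl, and no contrast passed the test (edgeR adjusted p = 0.208, 0.618 and 0.276). CDC25B had 578 and 548 CPM in siControl, 246 and 209 with siRNA1, and 545 and 453 with siRNA2. Its siRNA1 libraries were far below the others, with a log2 fold change of -1.31 against siControl (SE 0.20, edgeR adjusted p = 0.0104) and of 1.13 for siRNA2 against siRNA1 (adjusted p = 0.00185). PLK1, the Polo kinase of spindle poles and kinetochores, had 150 and 135 CPM in siControl, 144 and 111 with siRNA1, and 103 and 86.9 with siRNA2. It fell with siRNA2 by a log2 fold change of -0.58 (SE 0.20, edgeR adjusted p = 0.0426), a call lost without either siRNA2 library (adjusted p = 0.0635 and 0.246). CCNA2, the cyclin of late S phase and G2, rose with siRNA2 by a log2 fold change of 0.55 (edgeR adjusted p = 0.0446), also lost without either siRNA2 library (adjusted p = 0.102 and 0.159). CCNB2, CDC25C, AURKA and NEK2 passed neither test against siControl.

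Within the spindle assembly checkpoint, the signal that delays anaphase, 2 of 6 genes rose and 1 fell with siRNA2. Over all genes, 15.7% were called in each direction. BUB1B, which encodes a checkpoint kinase that binds CDC20, had 17.8 and 24 CPM in siControl, 21.3 and 17.8 with siRNA1, and 55.0 and 62.6 with siRNA2. The siRNA2 libraries stood clear of all others. It rose with siRNA2 by a log2 fold change of 1.49 (SE 0.22, edgeR adjusted p = 0.00240), and over the alternatives by 1.16 to 1.74. MAD2L1, which forms the checkpoint complex with it, had 79.0 and 82.9 CPM in siControl, 107 and 130 with siRNA1, and 43.1 and 58.7 with siRNA2. The siRNA1 libraries were the highest and the siRNA2 libraries the lowest. Its log2 fold change was -0.67 with siRNA2 against siControl (SE 0.20, edgeR adjusted p = 0.0295). This call was lost without TMM factors, without either siControl library and without siRNA2 replicate 1 (log2 fold change -0.46). For siRNA2 against siRNA1 the MAD2L1 value was -1.22 (edgeR adjusted p = 0.00151). The kinase gene BUB1 rose with siRNA2 by a log2 fold change of 0.70 (edgeR adjusted p = 0.0193), which was 0.45 with the dependence on length and GC removed (adjusted p = 0.0346), and the call was lost without siRNA2 replicate 2 (adjusted p = 0.0877). BUB3, TTK and ZWINT passed neither test against siControl.

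The anaphase trigger held 4 genes, among them the securin and separase pair, an inhibitor and the protease that it holds back. With siRNA1, 0 of the 4 rose and 1 fell, beside 2.24% and 3.64% of all genes. With siRNA2, 0 rose and 2 fell, beside 15.7% in each direction. PTTG1, the securin, had 258 and 209 CPM in siControl, 284 and 361 with siRNA1, and 143 and 122 with siRNA2. ESPL1, the separase, had 66.9 and 77.9 CPM in siControl, 35 and 24.7 with siRNA1, and 103 and 107 with siRNA2. For each gene the 3 groups did not overlap, and their order was reversed between the genes. PTTG1 fell with siRNA2 by a log2 fold change of -0.82 (SE 0.21, edgeR adjusted p = 0.0137, and 0.0842 without siRNA2 replicate 2), and its value with siRNA1 was 0.46 (adjusted p = 0.188). ESPL1 fell with siRNA1 by a log2 fold change of -1.28 (SE 0.21, edgeR adjusted p = 0.0119), and its value with siRNA2 was 0.54 (adjusted p = 0.0662). Between the siRNAs, PTTG1 was lower with siRNA2 by -1.28 and ESPL1 higher by 1.82 on the log2 scale (edgeR adjusted p = 0.00134 and 0.000489). CDC20, which activates the anaphase-promoting complex, had 313 and 273 CPM in siControl, 298 and 266 with siRNA1, and 197 and 156 with siRNA2. Both siRNA2 libraries of CDC20 lay below all others, with a log2 fold change of -0.73 (SE 0.20, edgeR adjusted p = 0.0182). The CDC20 call was lost with the dependence on length and GC removed (-0.27, adjusted p = 0.133) and without siRNA2 replicate 2 (-0.57, adjusted p = 0.154). UBE2C was lower with siRNA2 than with siRNA1 (log2 fold change -0.62, edgeR adjusted p = 0.0257), a value of -0.38 with the dependence on length and GC removed (adjusted p = 0.0331) and a call lost without siRNA2 replicate 2 (adjusted p = 0.209).

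The chromosomal passenger complex corrects faulty attachments and has 4 subunits. Of their genes, 0 rose and 1 fell with siRNA1, beside 2.24% and 3.64% of all genes. With siRNA2, 1 rose and 2 fell, beside 15.7% in each direction. AURKB, the kinase, had 162 and 132 CPM in siControl, 87.5 and 74.6 with siRNA1, and 93.7 and 76.8 with siRNA2. It was the member that fell with both siRNAs, by log2 fold changes of -0.86 (SE 0.20, edgeR adjusted p = 0.0328) and -0.79 (SE 0.20, adjusted p = 0.0128). The AURKB call with siRNA1 was lost without any one of the siControl and siRNA1 libraries (adjusted p = 0.0711 to 0.247). That with siRNA2 was lost with the dependence on length and GC removed (-0.33, adjusted p = 0.0763) and without siRNA2 replicate 2 (-0.65, adjusted p = 0.0947). INCENP, the scaffold, had 26.0 and 34.5 CPM in siControl, 38.7 and 19.3 with siRNA1, and 63.3 and 59.6 with siRNA2. The siRNA1 libraries spanned those of siControl, and INCENP rose with siRNA2 by a log2 fold change of 1.02 (SE 0.29, edgeR adjusted p = 0.0235). CDCA8, which encodes borealin, had 39.5 and 68.6 CPM in siControl, 34.1 and 22.8 with siRNA1, and 94.1 and 80.0 with siRNA2. It passed the test between the siRNAs (log2 fold change 1.62, SE 0.28, edgeR adjusted p = 0.00175) and neither test against siControl (adjusted p = 0.0732 and 0.0803). BIRC5, which encodes survivin, fell with siRNA2 by a log2 fold change of -0.62 (edgeR adjusted p = 0.0432), which was -0.42 without siRNA2 replicate 2 (adjusted p = 0.314).

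At the centromere and kinetochore, 2 of 8 genes fell with siRNA2 and 5 were lower with siRNA2 than with siRNA1, beside 15.7% and 18.6% of all genes. SPC24, a subunit of the NDC80 complex that grips microtubules, had 45.7 and 32.9 CPM in siControl, 29.4 and 35.1 with siRNA1, and 16.9 and 11.5 with siRNA2. Its log2 fold change with siRNA2 was -1.47 (SE 0.26, edgeR adjusted p = 0.00351), and over the alternatives it was -1.78 to -1.20. SPC25, its partner, also fell with siRNA2 (log2 fold change -0.63, edgeR adjusted p = 0.0403), but its value was -0.19 with the dependence on length and GC removed (adjusted p = 0.390), and the call was lost without either siRNA2 library (adjusted p = 0.0661 and 0.157). CENPE, a kinetochore motor, had 13.5 and 2.44 CPM in siControl, 4.55 and 8.32 with siRNA1, and 1.00 and 11.7 with siRNA2. Its replicates differed more than its groups, so no difference was detectable over all 6 libraries (log2 fold change -0.31, SE 0.86, edgeR adjusted p = 0.818 with siRNA2). CENPF and KNL1 had SEs of 0.63 to 0.71 on the log2 scale in every contrast and passed no test in the fit over all 6 libraries. Without siRNA2 replicate 2 they were lower with siRNA2, at -3.04 for CENPF (edgeR adjusted p = 7.15e-06) and -2.35 for KNL1 (adjusted p = 0.000142). Without siRNA2 replicate 1 the value of CENPF was 0.42 (adjusted p = 0.304), and between the siRNAs it was 0.76 (adjusted p = 0.0444), so the direction was set by which siRNA2 library was kept.

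Among 7 mitotic kinesins, 1 rose with siRNA2, beside 15.7% of all genes. This was KIF4A, which binds chromosome arms and the midzone (log2 fold change 0.64, edgeR adjusted p = 0.0257). Its value was 0.11 with the dependence on length and GC removed (edgeR adjusted p = 0.564). The KIF4A call was lost without either siRNA2 library (log2 fold change 0.56 without replicate 1 and 0.72 without replicate 2). KIF11, which pushes spindle poles apart, had 63.1 and 61.9 CPM in siControl, 57.9 and 80.3 with siRNA1, and 26.8 and 59.0 with siRNA2. Only siRNA2 replicate 1 was far from the others, and no contrast passed (edgeR adjusted p = 0.814, 0.212 and 0.104). Of 5 spindle assembly factors, 1 rose with siRNA2, against the same 15.7%. This factor, TPX2, an activator of AURKA, had 280 and 340 CPM in siControl, 355 and 330 with siRNA1, and 535 and 492 with siRNA2. It rose with siRNA2 by a log2 fold change of 0.73 (SE 0.19, edgeR adjusted p = 0.0174), but the value was 0.32 with the dependence on length and GC removed (adjusted p = 0.0907). Without siRNA2 replicate 1 it was 0.67 (adjusted p = 0.0773).

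Cytokinesis had 2 of 4 genes that rose with siRNA2, beside 15.7% of all genes. PRC1, which bundles microtubules of the midzone, had 44.1 and 60.3 CPM in siControl, 54.3 and 39.4 with siRNA1, and 96.8 and 95.6 with siRNA2. The siRNA2 libraries were above all others, with a log2 fold change of 0.88 (SE 0.22, edgeR adjusted p = 0.0130), but the value was 0.41 with the dependence on length and GC removed (adjusted p = 0.0938). RACGAP1, which forms the centralspindlin complex with KIF23, rose by 0.62 on the log2 scale (edgeR adjusted p = 0.0293), and the value of KIF23 was 0.37 (adjusted p = 0.218). The RACGAP1 call was lost with the dependence on length and GC removed (0.36, adjusted p = 0.0708) and without siRNA2 replicate 1 (0.48, adjusted p = 0.194). TOP2A, which untangles chromosomes, had 218 and 251 CPM in siControl, 217 and 232 with siRNA1, and 90.7 and 344 with siRNA2. The siRNA2 libraries lay on either side of all others, and the log2 fold change was -0.11 (SE 0.44, edgeR adjusted p = 0.869) with TMM factors and 0.17 without them. It was -1.37 without siRNA2 replicate 2 (adjusted p = 0.00172) and 0.55 without siRNA2 replicate 1.

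The transcription factors of the programme, which bind at the CHR with MuvB, differed from each other. FOXM1 had 34.4 and 58.2 CPM in siControl, 16.6 and 7.54 with siRNA1, and 81.5 and 79.2 with siRNA2. As for PRR11, the siRNA1 libraries were the lowest and the siRNA2 libraries the highest. FOXM1 fell with siRNA1 by a log2 fold change of -1.95 (SE 0.35, edgeR adjusted p = 0.0151), its value with siRNA2 was 0.79 (SE 0.33, adjusted p = 0.0899), and siRNA2 was above siRNA1 by 2.74 (SE 0.36, adjusted p = 0.000653). The siRNA1 call was lost without siControl replicate 2 (adjusted p = 0.0797) and without siRNA1 replicate 2 (adjusted p = 0.166). MYBL2 had 440 and 329 CPM in siControl, 519 and 470 with siRNA1, and 297 and 247 with siRNA2. It was lower with siRNA2 than with siRNA1 (log2 fold change -0.86, SE 0.21, edgeR adjusted p = 0.00943, and 0.0641 without siRNA2 replicate 2), while its values against siControl were 0.36 and -0.50 (adjusted p = 0.316 and 0.0981).

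siRNA2 replicate 1 stood apart from its replicate for a subset of the members. In it, 15 of the 51 were lower than in siRNA2 replicate 2 by more than 1 on the log2 scale, up to -3.42 for ASPM, a spindle pole protein. ASPM had 3.54 and 42.8 CPM in the 2 siRNA2 libraries, CENPF 7.38 and 81.5, KIF18A 2.01 and 19.3, and TTK 5.84 and 41.1. All 15 belonged to the 21 members with a GC content under 42.1% in the longest transcript, which is the first quartile of all genes tested, a split chosen after seeing the data. Over all genes tested, 4.38% were lower in replicate 1 to this extent, and 16.3% of genes under that quartile. None of the members was lower to this extent in siControl replicate 1, where CENPE was higher by 2.25, and 1 was in siRNA1 replicate 1. Between the ratio of replicates and GC content over the 51 members, Pearson's r was -0.16 in siControl, 0.77 in siRNA1 and 0.68 in siRNA2. Spearman's rho was -0.08, 0.84 and 0.81. With the log2 of transcript length, Pearson's r was 0.24 in siControl, -0.23 in siRNA1 and -0.62 in siRNA2. In siRNA2 the ratio thus went with length as well as with GC content. All points of a group share the same 2 libraries. The median GC content was 43.2% in the 50 members and 48.4% over all genes tested. With siRNA2 against siControl, 1 of the 21 members of low GC content rose and 3 fell, and of the other 29, 7 rose and 6 fell. Over all genes tested, 15.7% were called in each direction. That share was not computed by GC content, so no trait of the members was read from the split. The parts of GC content and length in the results were not tested beyond the fit without the dependence on length and GC.

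**Figure D4:**
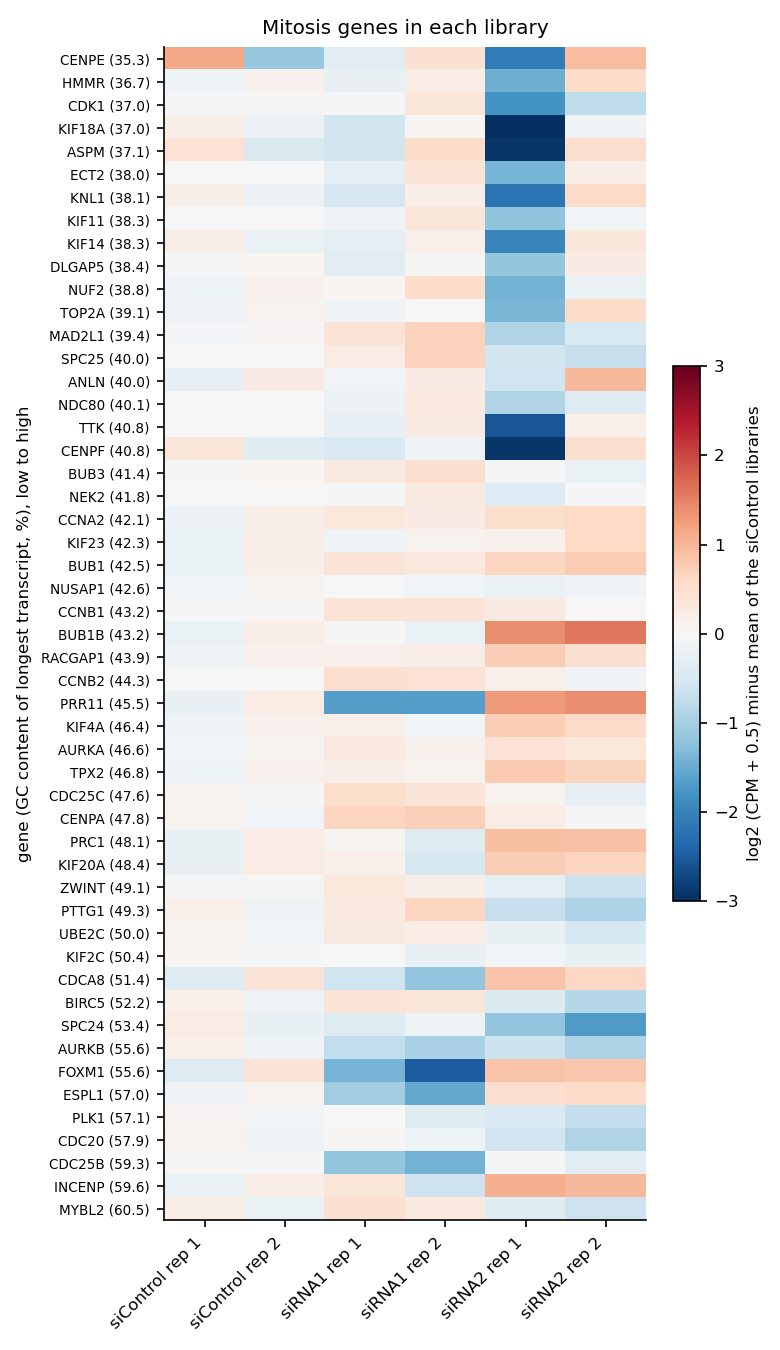
Rows are the 51 genes ordered by GC content of the longest transcript, columns the 6 libraries, and colour the log2 of CPM plus 0.5 minus the mean of the siControl libraries. siRNA2 replicate 1 is darkest blue in the upper rows, where 15 members were more than 1 lower than in replicate 2, and PRR11 is blue in both siRNA1 and red in both siRNA2 libraries.

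**Figure D5:**
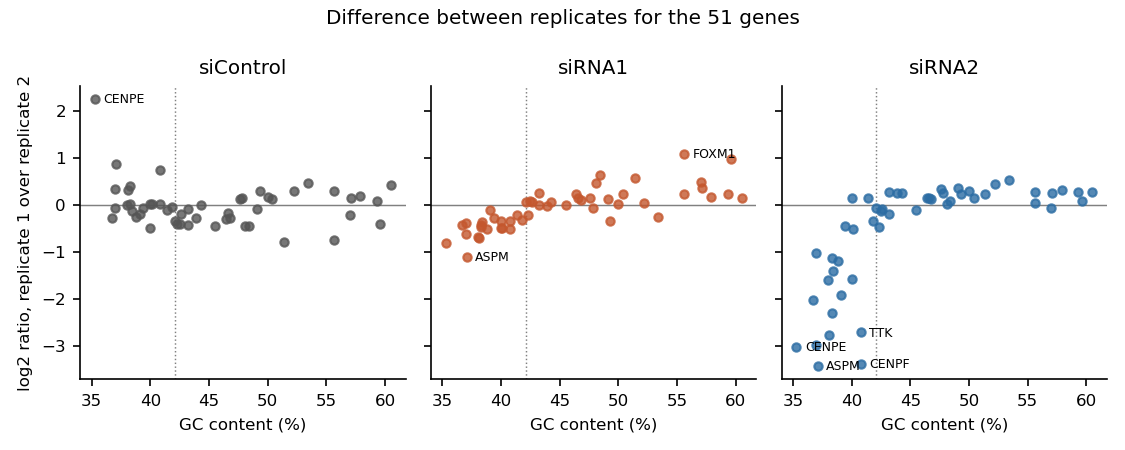
Points are the 51 genes, the horizontal axis the GC content in percent and the vertical axis the log2 ratio of replicate 1 over replicate 2 in siControl, siRNA1 and siRNA2, with a dotted line at 42.1% GC. In siRNA2 the ratio reached -3.42 among genes of low GC content, whereas in siControl the farthest gene was CENPE at 2.25.

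Other genes of mitosis were read from 6 lists with 99 genes. With siRNA1, 2 rose by edgeR, SKA2 and CKS2, and 0 fell, beside 2.24% and 3.64% of all genes. The share that rose was near the background, and 19 had an unadjusted p under 0.05 in either direction. CKS2, a small subunit of CDK1 complexes, had 208 and 191 CPM in siControl, 349 and 404 with siRNA1, and 141 and 109 with siRNA2. It thus rose with siRNA1 (log2 fold change 0.92, edgeR adjusted p = 0.0277) and fell with siRNA2 (-0.67, adjusted p = 0.0271). The first call was lost without any one of the siControl and siRNA1 libraries (adjusted p = 0.0595 to 0.217). The second was lost without TMM factors (-0.41, adjusted p = 0.0995), with the dependence on length and GC removed (-0.28, adjusted p = 0.221), without either siControl library (adjusted p = 0.145 and 0.0552) and without siRNA2 replicate 2 (adjusted p = 0.223). With siRNA2, 17 of the 99 rose and 18 fell, shares near the 15.7% of all genes called in each direction, with a median of -0.18. SKA1, which works in the same complex as SKA2, had 1.57 and 5.75 CPM in siControl, 2.66 and 3.46 with siRNA1, and 24 and 27.2 with siRNA2, and rose with siRNA2 by a log2 fold change of 2.80 (SE 0.45, edgeR adjusted p = 0.00272). For the anaphase-promoting complex with its regulators and enzymes, 2 of 17 genes rose and 6 fell with siRNA2, beside 15.7% in each direction. ANAPC1, its scaffold, rose by 1.45 (edgeR adjusted p = 0.00179, and over the alternatives by 0.68 to 1.70), while its catalytic subunit ANAPC11 fell by 1.58 (adjusted p = 0.00270) and UBE2S, an enzyme that extends ubiquitin chains on its substrates, fell by 1.48 (adjusted p = 0.00601) on the log2 scale. The UBE2S value was -0.98 without siControl replicate 1 (adjusted p = 0.0719). Of 11 MuvB subunits, pocket proteins and their E2F partners, 2 rose and 1 fell with siRNA2, against that background. RBL2, a pocket protein that holds MuvB targets silent in resting cells, had 8.86 and 16.9 CPM in siControl, 10.8 and 11.3 with siRNA1, and 61.1 and 77.3 with siRNA2 (log2 fold change 2.42 with siRNA2, SE 0.29, edgeR adjusted p = 0.00179). Of 30 DNA replication genes, 2 rose and 8 fell with siRNA2, beside 15.7% of all genes in each direction, with a median of -0.27. With siRNA1 edgeR called 0 of the 30, beside 2.24% of all genes called higher and 3.64% lower. Of the 30, 6 had an unadjusted p under 0.05 with siRNA1.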

How the data were processed

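RNA of T24 cells with siControl, siRNA1 or siRNA2 (2 libraries each) was sequenced without strand information after selection on oligo dT beads. The authors deposited counts, as whole reads per gene without normalization. Their processing notes name FastQC, cutadapt, STAR and hg38, while no counting tool or annotation release is given in the sources used here. Oligo dT selection favours polyadenylated RNA, and counting without strand merges reads of overlapping genes. For 6 members, 61 to 276 exon bases are shared with a tested gene on the opposite strand.

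The members and gene lists were chosen with earlier results of these data known. Tests were run with edgeR 4.0.16 under R 4.3.3 (filterByExpr by group, TMM, quasi-likelihood test, Benjamini-Hochberg adjustment over 14415 genes, threshold 0.05), with 1 mean per group over 6 libraries. PRR11 was not tested. Symbols, lengths and GC content came from GENCODE release 29, which held 99.5% of identifiers. Values are printed for PRR11 and SKA2, for reference members of each role and for the 4 largest rises and falls among called members of each contrast, and other called members were named for their counts. From each other list at most 3 called genes per contrast were named. The alternatives left out each library, the TMM factors, the filter or the group outside the contrast, added a replicate block, took off a spline (5 degrees of freedom) over length and GC content, or used DESeq2 1.42.0. On simulated counts for 14415 genes with 200 changed, edgeR recovered 29% of changes of 1 and 86.5% of changes of 2 on the log2 scale with siRNA1, and 30% and 89.5% with siRNA2. Unchanged genes made up 3.33% and 11.3% of the genes called with siRNA1 in these simulations, and 10.4% and 10.5% with siRNA2. With 2 libraries in a group, p-values measure only the spread between these libraries.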

Additional observations from a re-analysis of the deposited data

How the results depend on the processing

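The counts of called members (4 with siRNA1, 17 with siRNA2, 24 between the siRNAs) stayed within 1.5 times of these with DESeq2, no TMM factors, no filter, 2 groups alone and the replicate block, and 0 called members changed sign under any of these alternatives or any left-out library. With the trend over length and GC content removed, 9 were called with siRNA1. Leaving out each library gave 0 to 6 with siRNA1, 2 to 22 with siRNA2 and 10 to 29 between the siRNAs. The causes were not tested. Losses of a call named beside single genes are not a full list. Without siControl replicate 1, only BUB1B and SPC24 kept their call with siRNA2. Without TMM factors, PLK1, MAD2L1, CDC20, BIRC5 and SPC25 lost theirs. A left-out library leaves 1 sample in its group, which is then assumed to vary like the other groups. Same-numbered libraries share only a number (correlations of deviations -0.12, 0.20 and 0.19), and the replicate block gave 4, 20 and 26 called members.

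Among the genes named, directions turned only in contrasts where the gene did not pass in the fit over all 6 libraries. Of these genes, CENPE, CENPF, KNL1, TOP2A, ASPM and TTK turned with which siRNA2 library was kept. Without siRNA2 replicate 2 their log2 fold changes with siRNA2 were -2.98, -3.04, -2.35, -1.37, -3.15 and -2.67. Without siRNA2 replicate 1 they were 0.56, 0.42, 0.59, 0.55, 0.44 and 0.14. Between the siRNAs, CENPF was at 0.76 without siRNA2 replicate 1. The values below leave out ASPM, TTK and KIF18A, and members named only as passing neither test. Without TMM factors the log2 fold changes with siRNA2 were 0.06 for CENPE, 0.17 for TOP2A, 0.08 for KNL1 and 0.08 for CDC25B, and between the siRNAs 0.06 for CCNB1, 0.37 for CENPE, 0.27 for CENPF, 0.27 for KNL1 and 0.32 for TOP2A, and with siRNA1 that of KIF4A was -0.06. With the trend removed they were 0.11 for PLK1, 0.18 for CDC20 and 0.21 for INCENP with siRNA1. With 2 groups alone CENPE was at 0.04 between the siRNAs. Over left-out libraries, the values with siRNA1 ran from -0.15 to 0.04 for CDC20, -1.03 to 1.40 for CENPE, -0.30 to 0.17 for BUB1B, -0.41 to 0.12 for PRC1, -0.17 to 0.08 for TOP2A, -0.65 to 0.36 for INCENP, -0.03 to 0.35 for CDK1, -0.36 to 0.02 for PLK1, -0.11 to 0.22 for KIF4A, -0.62 to 0.08 for CENPF, -0.53 to 0.20 for KNL1, -0.90 to 1.00 for SKA1, -0.61 to 0.36 for RBL2, -0.22 to 0.23 for KIF23 and -0.11 to 0.36 for KIF11. With siRNA2 they ran from -2.98 to 1.38 for CENPE, -1.37 to 0.55 for TOP2A, -3.04 to 0.42 for CENPF, -2.35 to 0.59 for KNL1 and -0.04 to 0.22 for SKA2, and between the siRNAs from -0.08 to 0.21 for AURKB, -2.68 to 0.85 for CENPE, -2.70 to 0.76 for CENPF, -2.24 to 0.70 for KNL1 and -1.30 to 0.61 for TOP2A.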
